A study of Mus musculus with 12 samples.

Results

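Kruppel-like factors (KLFs) are zinc-finger transcription factors that bind CACCC-like and GC-rich DNA. The genes described here are Klf2, Klf3, Klf4, Klf6, Klf7, Klf9, Klf10 and Klf13, the 8 rows of a 24062-gene count table that carry these symbols, and 8 of 8 had enough counts to be tested. They were followed through 12 RNA libraries of mouse CD4+ T cells. Each library held either GFP-positive regulatory T cells (Treg), which restrain immune responses, or GFP-negative conventional T cells (Tconv). Every mouse was C57BL/6. One arm consisted of tumour-bearing (TB) mice that had been given 500000 TC-1 cells through the tail vein 3 weeks earlier, and both their tumour and their spleen were sampled. The other arm consisted of normal mice, of which only the spleen was sampled. The 6 groups are thus tumour Treg, tumour Tconv, TB spleen Treg, TB spleen Tconv, normal spleen Treg and normal spleen Tconv, with 2 libraries each (n = 2). TC-1 cells are mouse lung epithelial cells transformed by oncogenes. The labels give neither the age of the mice nor the gene that drives GFP. They list no T cells from the healthy counterpart of the tumour's organ, so what is called a tumour effect and an effect of that organ cannot be told apart.

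The family splits by the partners its members recruit. KLF2, KLF4, KLF6 and KLF7 act mainly as activators of transcription, KLF3 recruits the CtBP corepressors, and KLF9, KLF10 and KLF13 recruit the SIN3A corepressor. In resting T cells KLF2 maintains quiescence and the expression of S1pr1, which allows cells to leave tissue. Klf2 is switched off when a T cell is activated. Klf4 and Klf6 are known for quick induction by many stimuli, which need not hold in T cells. Klf10 was described as a TGF-beta-inducible early gene, and Klf9 is a direct target of the glucocorticoid receptor. KLF13 is known in T cells for driving late expression of the chemokine Ccl5.

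The promoters of 4 members are shown. Klf4 and Klf6 were higher in the tumour in both cell types, Klf2 differed between sites by an amount that depended on the cell type, and Klf9 differed between TB and normal spleen. The promoter window of Klf3, whose site difference also depended on the cell type, is described but not printed, because it runs into the annotated Klf3 transcript. Each stretch covers the 220 bases from 250 to 31 bases before the RefSeq transcription start (GRCm38.p6, the build also called mm10), 5′ to 3′ on the gene's own strand. Capitals mark matches on either strand to CACCC, a core KLF element, or GGGCGG, the GC box that KLF and SP factors share.
Klf2, chr8:72318812-72319031, plus strand: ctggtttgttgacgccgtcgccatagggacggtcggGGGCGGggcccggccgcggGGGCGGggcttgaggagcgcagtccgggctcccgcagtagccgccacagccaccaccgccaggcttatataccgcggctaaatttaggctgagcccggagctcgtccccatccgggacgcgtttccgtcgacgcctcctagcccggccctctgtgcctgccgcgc
Klf4, chr4:55532506-55532725, minus strand: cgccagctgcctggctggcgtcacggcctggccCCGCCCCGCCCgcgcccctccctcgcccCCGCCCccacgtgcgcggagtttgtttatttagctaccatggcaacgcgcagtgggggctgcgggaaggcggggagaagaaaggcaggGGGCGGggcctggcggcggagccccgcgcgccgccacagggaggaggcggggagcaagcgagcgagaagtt
Klf6, chr13:5861239-5861458, plus strand: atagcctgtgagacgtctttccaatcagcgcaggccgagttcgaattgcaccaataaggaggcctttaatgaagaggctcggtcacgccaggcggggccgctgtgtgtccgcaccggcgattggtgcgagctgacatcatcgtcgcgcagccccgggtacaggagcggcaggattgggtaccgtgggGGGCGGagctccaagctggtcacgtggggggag
Klf9, chr19:23140976-23141195, plus strand: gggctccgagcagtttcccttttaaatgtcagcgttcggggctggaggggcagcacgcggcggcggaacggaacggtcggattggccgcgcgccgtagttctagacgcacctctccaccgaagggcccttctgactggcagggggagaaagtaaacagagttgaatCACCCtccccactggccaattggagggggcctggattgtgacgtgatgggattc
The GC box GGGCGG occurred 4 times in the Klf4 window, 2 times in the Klf2 window, 1 time in the Klf6 window and 0 times in the Klf9 window, and 28.5% of 32851 mouse promoter windows of the same length held at least 1. CACCC occurred 1 time in the Klf9 window and 0 times in the other 3, and it was in 47.8% of all windows. Of the members not printed, Klf3 held 5 copies of CACCC and 6 of GGGCGG, with 1 overlap between them. Klf7 held 3 and 1, and Klf13 held 0 and 1. The Klf7 window lies wholly inside the annotated Klf7 gene. The Klf6 window held 4 copies of CCAAT and the Klf9 window 3, and CCAAT was in 31% of all windows. The Klf2 window held 1 match to the MEF2 motif, with its first base 118 bases before the start, and 0.420% of all windows held 1. The elements searched on both strands also included the AP-1 site TGACTCA, present in 4.01% of all windows, the cAMP-response element TGACGTCA, present in 1.14%, the forkhead site TGTTTAC, present in 2.81%, and the SRF motif, present in 1.30%. TGTTTAC occurred 1 time in the Klf9 window, and none of these 4 occurred elsewhere in the windows shown. A match is a description of the letters and not evidence of binding, and 7 of 8 members matched a promoter entry. Klf10 did not.

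In GENCODE annotation of the same assembly, Klf2 lies on chromosome 8 (72319033 to 72321656, plus strand), Klf4 on chromosome 4 (55527143 to 55532466, minus strand) and Klf6 on chromosome 13 (5861482 to 5870394, plus strand). Klf3 lies on chromosome 5 (64803388 to 64832901, plus strand), Klf9 on chromosome 19 (23141226 to 23168134, plus strand), Klf10 on chromosome 15 (38291463 to 38300706, minus strand) and Klf13 on chromosome 7 (63886351 to 63938915, minus strand). Whether the counts cover these same exons is not known, because the sources used here do not name the annotation of the counting. Klf7, on chromosome 1 (64029447 to 64122282, minus strand), shares 39.4% of its exonic bases with the opposite-strand models Gm13748 and Gm26649, so its counts are uncertain to that extent, since the sources used here do not give the strand setting of the counting. Klf3 shares 3.59% of its exonic bases with the opposite-strand model Gm20033.

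Total counts per library ran from 18624132 to 24111546. The Treg lineage factor Foxp3 stood at 989 to 1247 CPM (counts scaled to a common library size) in the 6 GFP-positive libraries and at 11.5 to 19.6 CPM in the 6 GFP-negative ones, in keeping with the labels. The 6 T cell markers summed to 4094 to 4745 CPM in the tumour libraries and to 4208 to 5850 CPM in the spleen libraries, while 4 B cell markers summed to at most 1.10 CPM in any library. The tumour libraries also held RNA of other cells. All 6 fibroblast markers were detected there, with a sum of 217 to 529 CPM against 0.191 to 2.03 CPM in spleen, with 6 of 6 called higher in both cell types. Of 4 endothelium markers tested, 2 were called higher and 1 lower in tumour Treg, and 3 higher and 1 lower in tumour Tconv. The lower one, Pecam1, made up most of their sum (99.5 to 252 CPM in the tumour and 197 to 328 CPM in spleen), whereas Cdh5 stood at 0.790 to 6.35 CPM against 0.0418 to 0.815 CPM. The 5 macrophage and monocyte markers in the table summed to 174 to 432 CPM against 1.83 to 8.55 CPM, most of it Lyz2, and the 6 lung and tumour epithelium markers to 80.2 to 148 CPM against 2.86 to 28.3 CPM, with Krt8 and Sftpc at 0 in every spleen library. Fibroblasts, macrophages and epithelium express several KLFs, Klf4, Klf6 and Klf9 among them, and the part of these cells in the tumour values was not tested. In bulk samples fewer cells of a type and less RNA per cell cannot be told apart. The labels do not state that the replicate libraries are separate mice. The p-values therefore measure the spread between libraries, which may be technical.

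Divided by exonic length in the GENCODE annotation, Klf2, Klf6 and Klf13 were the most abundant members in every group. Klf2 averaged 102 (TB spleen Treg) to 475 (tumour Tconv) CPM per kb, Klf6 49.4 to 209 CPM per kb and Klf13 50.2 to 94.5 CPM per kb. Klf3 averaged 5.28 to 27.1 CPM per kb, Klf10 5.89 to 22.6, Klf9 1.04 to 10.8 and Klf7 0.992 to 1.87. Klf4 spanned the widest range, from 0.274 CPM per kb in normal spleen Tconv to 34.5 in tumour Tconv. Its highest group mean was 126 times its lowest, against 10.5 times for Klf9, 5.13 for Klf3, 4.65 for Klf2, 4.23 for Klf6, 3.84 for Klf10, 1.89 for Klf7 and 1.88 for Klf13.

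**Figure D1:**
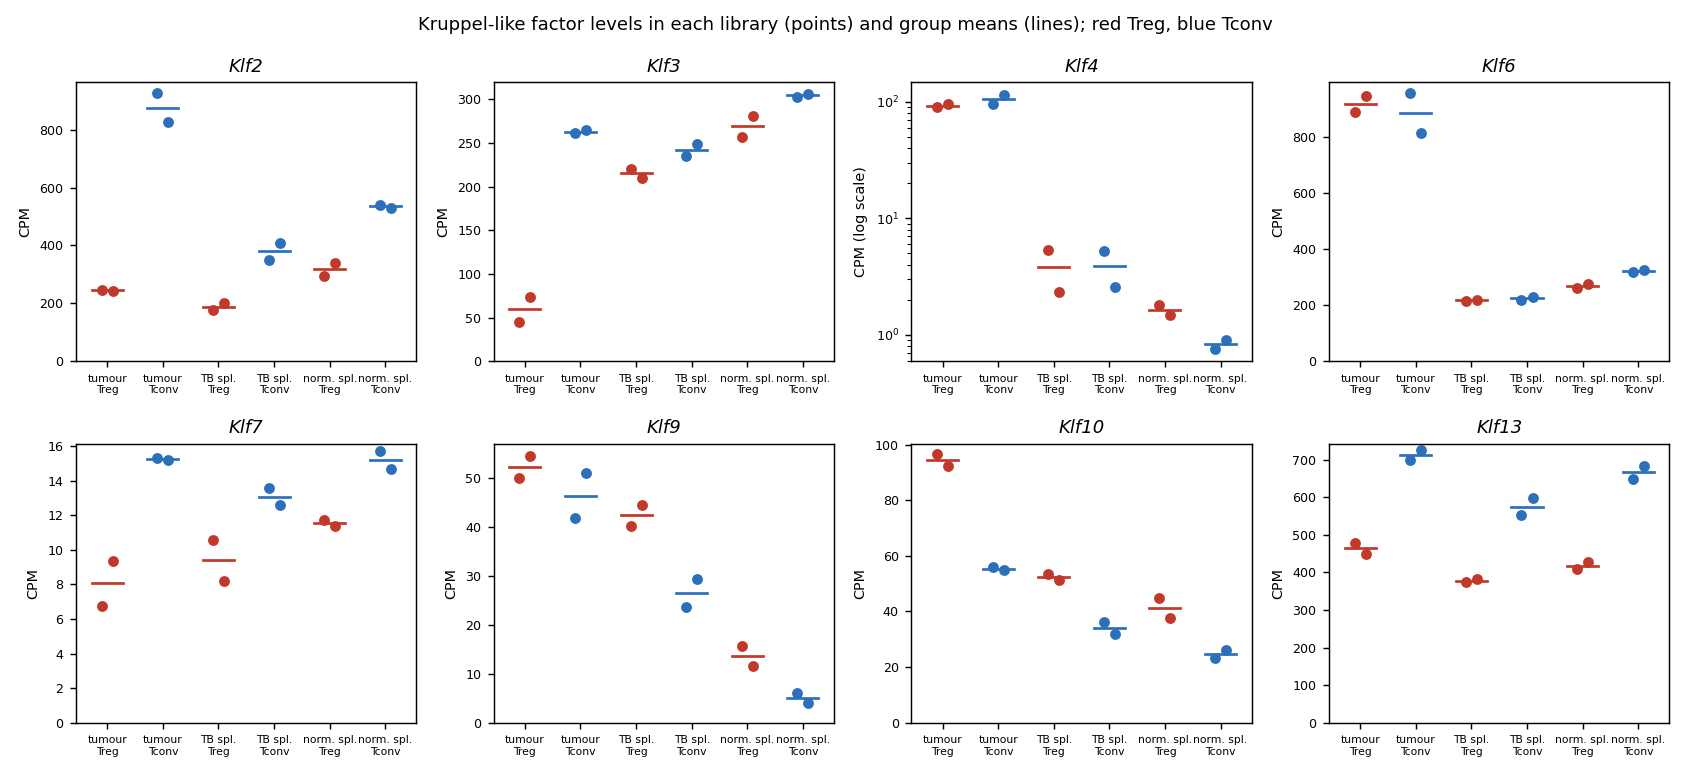
Level of each Kruppel-like factor in every library, in CPM on a linear axis except for Klf4, whose axis is logarithmic. Points are libraries, lines are group means (n = 2), red is Treg and blue is Tconv. Klf4 and Klf6 sit high in all 4 tumour libraries, Klf3 sits low only in the 2 tumour Treg libraries (45.3 and 73.4 CPM), and Klf9 is lowest in normal spleen.

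The first question was how T cells in the tumour differed from those in the spleen of TB mice. All tests are two-sided edgeR quasi-likelihood F tests adjusted by the Benjamini-Hochberg method over 13509 genes, called at an adjusted p below 0.05, and changes are log2 fold changes ± SE. In Treg 6 of 8 members were called, 5 higher and 1 lower in the tumour, where 61.4% of all tested genes were called (32.8% higher, 28.7% lower). In Tconv 6 of 8 were called, all 6 higher, where 49.1% of all tested genes were called (26.4% higher, 22.8% lower). So many genes differed between the sites that a call by itself is not particular to a member, nor to a gene of the lists below. The median change over the 8 members was 0.34 in Treg and 0.76 in Tconv, against 0.02 and 0.0004 over all tested genes. Library-size scaling in place of TMM moved the all-gene medians to -0.14 and -0.11, the share of higher genes among the calls from 53.3% to 39.9% in Treg and from 53.7% to 41.5% in Tconv, and the members called in Treg from 6 to 4 (3 higher, 1 lower).

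Klf4 and Klf6, both activators, had the largest tumour increases of the 8 members in both cell types. Klf4 stood at 90.1 and 96.0 CPM in tumour Treg and at 95.7 and 114 CPM in tumour Tconv. In TB spleen it stood at 5.32 and 2.33 CPM in Treg and at 5.26 and 2.56 CPM in Tconv, and in normal spleen at 1.80 and 1.47 CPM in Treg and at 0.764 and 0.906 CPM in Tconv. Every tumour library was thus far above every spleen library, and in TB spleen library 1 was above library 2 in both cell types. Between tumour and TB spleen Klf4 rose by 4.60 ± 0.27 in Treg (adjusted p = 5.61e-08) and by 4.77 ± 0.27 in Tconv (adjusted p = 6.39e-08). Its change in Treg was 5.31 with TB spleen Treg library 1 left out and 4.13 with library 2 left out, and leaving out library 1 of both TB spleen groups gave 5.31 in Treg and 5.35 in Tconv. The 2 tumour groups overlapped, and the difference between the Treg and the Tconv change was -0.18 ± 0.40 (adjusted p = 0.802), which leaves differences of either sign within its error.

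Klf6 stood at 888 and 946 CPM in tumour Treg and at 958 and 815 CPM in tumour Tconv. The 4 TB spleen libraries lay between 214 and 229 CPM, and the 4 normal spleen libraries between 261 and 326 CPM. As for Klf4, the tumour libraries stood apart from all others and the 2 tumour cell types overlapped. Klf6 rose by 2.08 ± 0.08 in Treg (adjusted p = 1.94e-09) and by 1.98 ± 0.08 in Tconv (adjusted p = 2.86e-09), a 4.23-fold and a 3.96-fold increase. The difference between the 2 changes was 0.09 ± 0.11 (adjusted p = 0.583).

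Klf4, Klf6 and many immediate early genes respond to the same kinds of stimuli, tissue dissociation among them, so the 19 immediate early and dissociation stress genes are given beside them. They summed to 9899 to 13962 CPM in the 4 tumour libraries and to 1990 to 3971 CPM in the 8 spleen libraries. In TB spleen library 1 was above library 2 in both cell types, at 3655 against 2341 CPM in Treg and 3971 against 2121 CPM in Tconv, the same libraries in which Klf4 was higher. In tumour Treg 16 of the 19 rose and 1, Egr2, fell (-1.73, adjusted p = 1.69e-05), and in tumour Tconv 17 rose and 0 fell. With library-size scaling the counts were 14 and 2 in Treg and 17 and 1 in Tconv. The strongest included the orphan nuclear receptor Nr4a1, which rose by 3.33 in Treg and by 3.63 in Tconv, and the stress-response factor Atf3, which rose by 8.40 and 8.02 (7.62 to 10.1 and 7.24 to 8.52 with 1 library left out). Whether handling of the tissue had a part in the Klf4 and Klf6 values was not tested.

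Klf10 and Klf13, of the SIN3A-recruiting branch, were also higher in the tumour in both cell types, by less. Klf10 stood at 96.6 and 92.3 CPM in tumour Treg against 53.4 and 51.1 in TB spleen Treg, and at 55.9 and 54.8 CPM in tumour Tconv against 36.1 and 32.0 in TB spleen Tconv. No tumour library of a cell type overlapped its spleen counterpart, and Klf10 rose by 0.85 ± 0.09 in Treg (adjusted p = 8.00e-06) and by 0.70 ± 0.10 in Tconv (adjusted p = 8.16e-05). Klf13 stood at 479 and 450 CPM in tumour Treg against 373 and 383 in TB spleen Treg, and at 698 and 725 CPM in tumour Tconv against 553 and 597 in TB spleen Tconv. It rose by 0.30 ± 0.07 in Treg (adjusted p = 0.00195) and by 0.31 ± 0.07 in Tconv (adjusted p = 0.00211). With library-size scaling the Klf13 change in Treg was 0.14 (adjusted p = 0.0880), so that call depends on the scaling.

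Klf9, which recruits the same corepressor, reached the threshold in Tconv. It stood at 41.9 and 50.9 CPM in tumour Tconv against 23.5 and 29.3 in TB spleen Tconv, a rise of 0.81 ± 0.16 (adjusted p = 0.00143). In Treg the values were 50 and 54.4 CPM in the tumour and 40.2 and 44.4 in TB spleen, with a change of 0.30 ± 0.16 (adjusted p = 0.114). In Treg the Klf9 change met the threshold in a fit of the 2 groups alone (0.31, adjusted p = 0.0185). The difference between the 2 cell types was -0.51 ± 0.23 (adjusted p = 0.127), and without tumour Tconv library 1 it was -0.66 (adjusted p = 0.0406). Klf7 stood at 6.77 and 9.35 CPM in tumour Treg, 10.6 and 8.21 in TB spleen Treg, 15.3 and 15.2 in tumour Tconv and 13.6 and 12.6 in TB spleen Tconv. Its changes were -0.22 ± 0.17 in Treg (adjusted p = 0.261) and 0.22 ± 0.16 in Tconv (adjusted p = 0.271). Without tumour Treg library 2 the Klf7 change in Treg was -0.47 (adjusted p = 0.0372) and the difference between cell types -0.69 (adjusted p = 0.0371, against -0.44 and 0.183 with all libraries). Without tumour Treg library 1 the same 2 values for Klf7 were -0.0094 and -0.23.

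**Figure D2:**
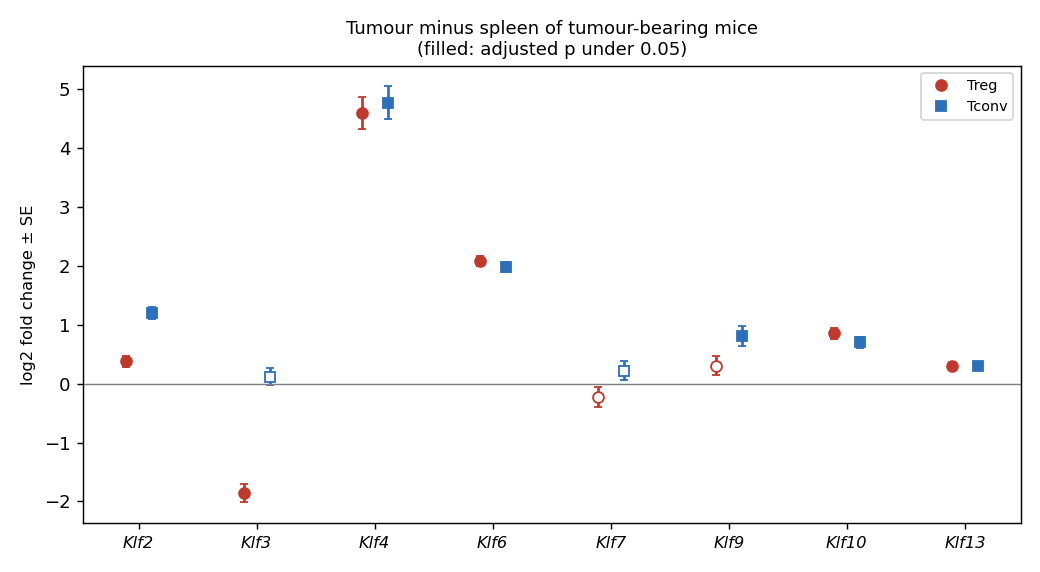
Change of each member between tumour and TB spleen, as log2 fold change ± SE (vertical axis), for Treg (red circles) and Tconv (blue squares), with filled symbols for an adjusted p under 0.05. The 2 cell types lie together for Klf4 (4.60 and 4.77) and for Klf6 (2.08 and 1.98), whereas the symbols of Klf2 and Klf3 are apart.

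Klf2 and Klf3 were the 2 members whose tumour change differed between Treg and Tconv. In that test of the difference 2 of 8 members were called, both lower in Treg, where 24.7% of all tested genes were called (11.7% higher, 13.1% lower). The median difference over the 8 members was -0.31, against -0.04 over all tested genes.

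Klf2, the factor of quiescence and recirculation, stood at 926 and 827 CPM in tumour Tconv, above every other group. The values were 351 and 410 CPM in TB spleen Tconv and 542 and 529 CPM in normal spleen Tconv. In Treg they were 245 and 244 CPM in the tumour, 175 and 201 in TB spleen and 294 and 341 in normal spleen. Tumour Treg thus lay above TB spleen Treg and below normal spleen Treg, with no overlap. Klf2 rose by 1.20 ± 0.10 in Tconv (adjusted p = 1.43e-06) and by 0.38 ± 0.10 in Treg (adjusted p = 0.00549), and the Treg change minus the Tconv change was -0.83 ± 0.14 (adjusted p = 0.00130). The Treg rise of Klf2 did not reach the threshold with library-size scaling (0.22, adjusted p = 0.0652), with TB spleen Treg library 1 left out (0.28, adjusted p = 0.0705) or with library 1 of both TB spleen groups left out (0.28, adjusted p = 0.0552). The difference between the cell types was called under every alternative run.

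Klf3, the CtBP-recruiting repressor, was low in tumour Treg alone. It stood at 45.3 and 73.4 CPM there and between 210 and 306 CPM in the other 10 libraries. The levels were 261 and 264 CPM in tumour Tconv, 220 and 210 in TB spleen Treg, 235 and 249 in TB spleen Tconv, 257 and 281 in normal spleen Treg and 303 and 306 in normal spleen Tconv. Klf3 fell by 1.86 ± 0.16 on the log2 scale in tumour Treg against TB spleen Treg (adjusted p = 9.98e-07), which is 3.62-fold lower. In Tconv its change was 0.12 ± 0.15 (adjusted p = 0.532). The difference between the 2 changes was -1.98 ± 0.21 (adjusted p = 6.43e-05). The fall was -2.25 without tumour Treg library 2 and -1.55 without library 1, and the call held in both.

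**Figure D3:**
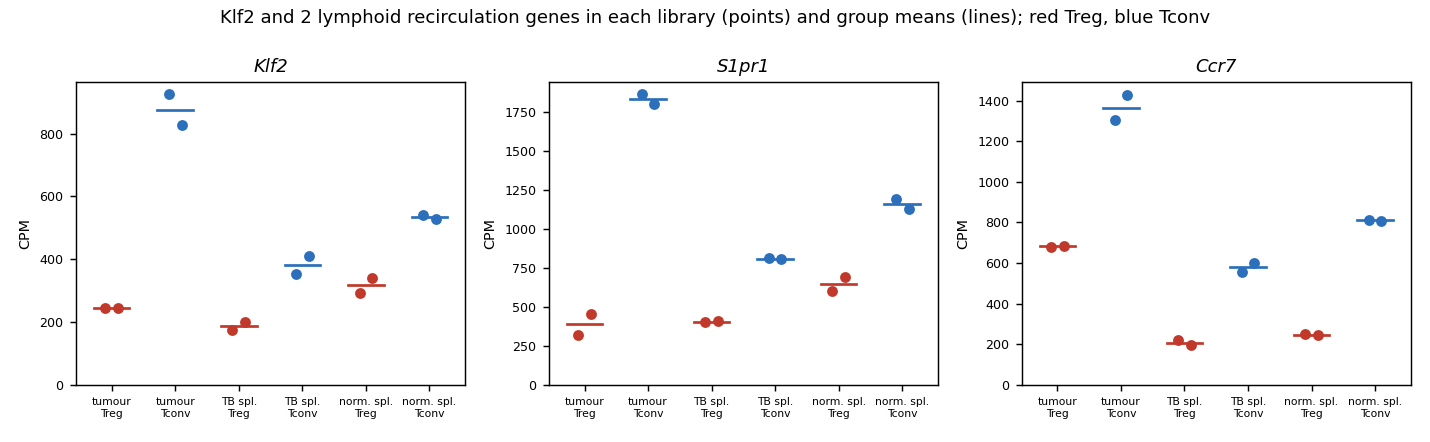
Levels of Klf2, S1pr1 and Ccr7 in CPM in every library (points) with group means (lines, n = 2), red for Treg and blue for Tconv. All 3 genes are highest in tumour Tconv. Other recirculation genes differ, as Itgb7, Cxcr3 and Cd69 are highest in tumour Treg (means of 1584, 350 and 293 CPM).

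A list of 9 genes of lymphoid recirculation, including known targets and regulators of KLF2, was read beside Klf2. In the tumour against TB spleen 5 of 9 rose in Treg and 3 of 9 in Tconv, with 0 falling (with library-size scaling 3 and 1 fell). As 61.4% of all tested genes were called in Treg and 49.1% in Tconv, these counts are not particular to the list. S1pr1, the receptor for the egress signal sphingosine 1-phosphate, stood at 1865 and 1804 CPM in tumour Tconv against 813 and 808 in TB spleen Tconv, and at 322 and 455 CPM in tumour Treg against 404 and 407 in TB spleen Treg. S1pr1 rose by 1.18 in Tconv (adjusted p = 1.05e-05), its change in Treg was -0.06 (adjusted p = 0.688), and the difference between the 2 was -1.24 (adjusted p = 4.12e-04), the same sign as for Klf2. Ccr7, the chemokine receptor of lymph node entry, rose in both, by 1.72 in Treg (adjusted p = 7.14e-09) and by 1.24 in Tconv (adjusted p = 1.21e-07), with the larger change in Treg (difference 0.48, adjusted p = 0.00676). Cd69, which opposes S1PR1 at the cell surface, rose by 1.22 in Treg and by 0.73 in Tconv (adjusted p = 0.0605 without TB spleen Tconv library 1). The S1pr1 change in Treg was -0.33 (adjusted p = 0.00630) without tumour Treg library 2. Itgb7 and Cxcr3, an integrin subunit and a chemokine receptor of tissue homing, rose in Treg by 0.95 and 0.96, and their changes differed from those in Tconv by 1.07 (adjusted p = 6.54e-05) and by 1.21 (adjusted p = 0.00532). In the test of the difference between cell types 4 of the 9 were higher and 2 lower in Treg.

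Of a list of 9 genes of T cell quiescence, which includes Myc, a driver of exit from it, 5 rose and 4 fell in tumour Treg (5 and 3 with DESeq2 size factors), and 6 rose and 2 fell in tumour Tconv. Myc was among those that fell, by 0.96 on the log2 scale in Treg (adjusted p = 2.35e-05) and by 0.68 in Tconv (adjusted p = 4.50e-04). The cell cycle inhibitor Cdkn1a rose from 2.45 and 2.41 CPM to 115 and 120 CPM in Treg (5.59, adjusted p = 1.78e-09) and from 0.678 and 0.628 CPM to 68.4 and 104 CPM in Tconv (7.04, adjusted p = 1.58e-09). The antiproliferative gene Btg2 rose by 0.46 in Treg and by 1.51 in Tconv. Foxp1, a factor that keeps T cells naive, fell by 0.91 on the log2 scale in Treg and changed by 0.07 in Tconv (adjusted p = 0.543). In the test of the difference 6 of 9 were lower in Treg and 0 higher, with Btg2 at -1.04 (adjusted p = 9.53e-06), Foxp1 at -0.98 (adjusted p = 2.52e-04), Cdkn1b at -0.63 (adjusted p = 6.18e-04) and Btg1 at -0.57 (adjusted p = 0.00187). The median difference of this list was -0.63. Beside these counts, 61.4% of all tested genes were called in tumour Treg, 49.1% in tumour Tconv and 24.7% in the test of the difference.

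Klf10 was read beside 9 genes of the TGF-beta pathway, which was described as inducing it. In tumour Treg 4 rose and 4 fell (4 and 2 with DESeq2 size factors), and in tumour Tconv 5 rose and 0 fell (4 and 1 with library-size scaling). The 2 with the smallest adjusted p in both cell types were inhibitors of the pathway that it induces as feedback. Skil rose by 2.03 in Treg (adjusted p = 2.72e-09) and by 2.20 in Tconv (adjusted p = 1.44e-09), and Smad7 rose by 1.84 (adjusted p = 1.96e-07) and by 1.43 (adjusted p = 2.28e-06). The ligand gene Tgfb1 rose by 0.55 in Treg (adjusted p = 1.04e-04), and the receptor gene Tgfbr2 by 0.48 in Tconv (adjusted p = 1.45e-04). The 4 that fell in Treg were the receptor gene Tgfbr1 and the SMAD genes Smad2, Smad3 and Smad4. Their Treg means went from 147 to 127 CPM (Tgfbr1), 74.3 to 64.5 (Smad2), 188 to 151 (Smad3) and 139 to 123 (Smad4). Calls made up 61.4% of all tested genes in Treg and 49.1% in Tconv.

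Among 13 cofactors and ubiquitin ligases that act on KLF proteins, 3 rose and 6 fell in tumour Treg, and 3 rose and 4 fell in tumour Tconv. These splits moved with the scaling, to 1 and 8 in Treg with library-size scaling and to 5 and 2 in Tconv with DESeq2 size factors. The shares called over all tested genes were 61.4% in Treg and 49.1% in Tconv. The corepressor gene Ctbp2, a partner of KLF3, rose in both cell types but from a low level, 0.208 to 0.550 CPM in TB spleen against 1.75 to 5.99 CPM in the tumour. Its paralog Ctbp1 stood at 181 to 251 CPM in the same 8 libraries and was called in neither comparison, except in Treg without tumour Treg library 2 (0.21, adjusted p = 0.0286). Sin3a, the partner of KLF9, KLF10 and KLF13, fell by 0.40 on the log2 scale in Treg (adjusted p = 4.52e-04), and the deacetylase gene Hdac2 fell by 0.53 in Treg and by 0.24 in Tconv. The Tconv call of Hdac2 was lost without tumour Tconv library 1 or TB spleen Tconv library 1 (adjusted p up to 0.165).

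The second question was how Treg differed from Tconv at the same site. In the tumour 5 of 8 members were called, 1 higher and 4 lower in Treg (53.9% of all tested genes, 27.2% higher and 26.7% lower). In TB spleen 5 of 8 were called, 2 higher and 3 lower (40.3%, 21.0% and 19.4%), and in normal spleen 5 of 8, 2 higher and 3 lower (40.6%, 21.8% and 18.7%). The median over the 8 members was -0.40, -0.11 and -0.22 at the 3 sites, against 0.00 over all tested genes at each.

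Klf10 was higher and Klf2 and Klf13 were lower in Treg at every site. Klf10 differed by 0.77 ± 0.09 in the tumour (adjusted p = 1.58e-05), 0.62 ± 0.10 in TB spleen (adjusted p = 2.16e-04) and 0.74 ± 0.10 in normal spleen (adjusted p = 6.79e-05), where its levels were 44.8 and 37.5 CPM in Treg against 23.2 and 26.0 CPM in Tconv. Klf13 differed by -0.62 ± 0.07 (adjusted p = 6.12e-06), -0.61 ± 0.07 (adjusted p = 1.26e-05) and -0.67 ± 0.07 (adjusted p = 4.96e-06), and its 6 Treg libraries (373 to 479 CPM) all lay below its 6 Tconv libraries (553 to 725 CPM). Klf2 differed by -1.84 ± 0.10 in the tumour (adjusted p = 1.61e-08), -1.01 ± 0.10 in TB spleen (adjusted p = 4.81e-06) and -0.75 ± 0.10 in normal spleen (adjusted p = 5.64e-05). The Klf2 gap was the widest in the tumour. Against TB spleen this is the site difference already tested, and against normal spleen it was not tested.

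Klf3 differed by -2.15 ± 0.16 in the tumour (adjusted p = 1.80e-07), lower in Treg. In spleen its differences were -0.17 ± 0.15 in TB mice (adjusted p = 0.395) and -0.18 ± 0.15 in normal mice (adjusted p = 0.367). These 2 small differences reached the threshold without either tumour Treg library (adjusted p = 0.0442 and 0.0441 in TB spleen, 0.0353 and 0.0359 in normal spleen), and in normal spleen also in a fit of the 2 groups alone (adjusted p = 0.0119). Klf7 was lower in Treg in the tumour (-0.92 ± 0.16, adjusted p = 4.04e-04) and in TB spleen (-0.47 ± 0.16, adjusted p = 0.0326). In normal spleen, where Klf7 stood at 11.8 and 11.4 CPM in Treg against 15.7 and 14.7 in Tconv, it differed by -0.39 ± 0.16 (adjusted p = 0.0654). The TB spleen call of Klf7 was lost with the DESeq2 Wald test (adjusted p = 0.0581) and with library-size scaling (adjusted p = 0.0539). It was also lost without TB spleen Tconv library 1 (-0.43, adjusted p = 0.144) or 2 (-0.53, adjusted p = 0.0706), with TB spleen Treg library 2 left out (-0.31, adjusted p = 0.256) and without library 1 of both TB spleen groups (-0.62, adjusted p = 0.0808). In normal spleen Klf7 was called with limma-voom (adjusted p = 0.0470), in a fit of the 2 groups alone (adjusted p = 0.00603) and without any 1 tumour library (adjusted p = 0.0320 to 0.0450).

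Klf9 was higher in Treg in normal spleen, at 15.7 and 11.5 CPM against 6.01 and 3.96 in Tconv (1.46 ± 0.21, adjusted p = 1.29e-04). It was also higher in Treg in TB spleen (0.68 ± 0.16, adjusted p = 0.00530), and in the tumour the groups overlapped (0.17 ± 0.16, adjusted p = 0.410). Without TB spleen Tconv library 1 the TB spleen difference of Klf9 was 0.53 (adjusted p = 0.0673), and without library 1 of both TB spleen groups it was 0.60 (adjusted p = 0.105). Klf6 was lower in Treg in normal spleen, at 261 and 274 CPM against 317 and 326 (-0.27 ± 0.08, adjusted p = 0.0158), and differed by 0.05 ± 0.08 in the tumour (adjusted p = 0.648) and by -0.05 ± 0.08 in TB spleen (adjusted p = 0.686). The normal spleen call of Klf6 was lost without normal spleen Tconv library 1 (-0.29, adjusted p = 0.0544) or 2 (-0.25, adjusted p = 0.0924) and without normal spleen Treg library 1 (-0.23, adjusted p = 0.116). Klf4 was not called at any site, with differences of -0.18 ± 0.20 in the tumour (adjusted p = 0.509), -0.0004 ± 0.36 in TB spleen (adjusted p = 1.00) and 0.96 ± 0.56 in normal spleen (adjusted p = 0.201). It was called in normal spleen in a fit of the 2 groups alone (0.97, adjusted p = 0.0236) and without library 1 of both TB spleen groups (0.96, adjusted p = 0.0169).

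**Figure D4:**
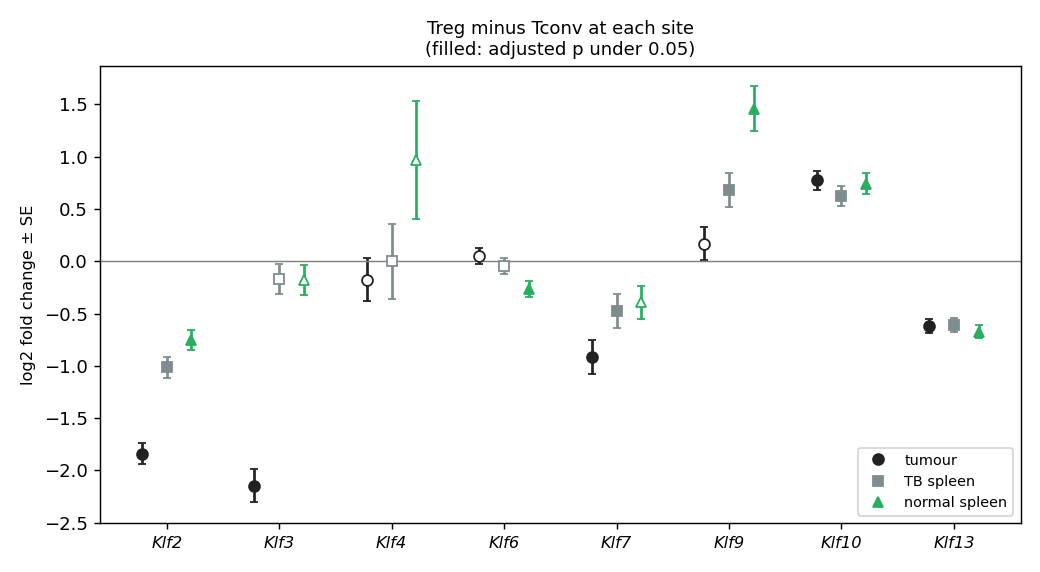
Difference between Treg and Tconv for each member, as log2 fold change ± SE (vertical axis; positive is higher in Treg), in tumour (black circles), TB spleen (grey squares) and normal spleen (green triangles), with filled symbols for an adjusted p under 0.05. Klf10 lies between 0.62 and 0.77 and Klf13 between -0.67 and -0.61 at all 3 sites, while Klf2 and Klf3 are lowest in the tumour.

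The recirculation list was split in the tumour, with 4 of 9 higher and 4 lower in Treg, and in spleen 5 of 9 were not called in TB mice and 3 in normal mice, with 1 higher and 3 lower in TB mice and 1 higher and 5 lower in normal mice (2 and 3, and 2 and 4, with library-size scaling). In tumour, TB spleen and normal spleen S1pr1 differed by -2.24 (adjusted p = 2.30e-08), -1.0 (adjusted p = 3.66e-05) and -0.84 (adjusted p = 1.52e-04). Ccr7 changed by -1.0, -1.48 and -1.73, and both genes were called at all 3 sites. Itgb7 was higher in Treg in the tumour by 1.29 (adjusted p = 6.09e-08), and was not called in spleen. The quiescence list had 1 higher and 7 lower in the tumour, 2 higher and 3 lower in TB spleen, and 2 higher and 4 lower in normal spleen. For both lists, the shares called over all tested genes were 53.9% in the tumour, 40.3% in TB spleen and 40.6% in normal spleen.

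The third question was whether a tumour elsewhere in the body went with a change in spleen T cells. These comparisons share the TB spleen libraries with those of tumour against spleen, so the values are given without a comparison between them. In Treg 4 of 8 members were called, 2 higher and 2 lower in TB mice, where 15.3% of all tested genes were called (6.80% higher, 8.50% lower). In Tconv 6 of 8 were called, 3 higher and 3 lower, where 17.2% of all tested genes were called (9.74% higher, 7.49% lower). Without library 1 of both TB spleen groups the counts were 2 of 8 (1 higher, 1 lower) and 3 of 8 (2 higher, 1 lower). The median over the 8 members was -0.22 in Treg and -0.21 in Tconv, against 0.00 over all tested genes. With library-size scaling the share of higher genes among all calls went from 44.4% to 66.5% in Treg and from 56.5% to 78.5% in Tconv.

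Klf9, the glucocorticoid receptor target, had the clearest change. It stood at 40.2 and 44.4 CPM in TB spleen Treg against 15.7 and 11.5 in normal spleen Treg, and at 23.5 and 29.3 CPM in TB spleen Tconv against 6.01 and 3.96 in normal spleen Tconv. No library of one state overlapped the other. Klf9 rose by 1.63 ± 0.17 in Treg (3.10-fold, adjusted p = 1.08e-04) and by 2.41 ± 0.20 in Tconv (5.32-fold, adjusted p = 2.08e-05). Both calls held under every alternative run. The Treg change minus the Tconv change was -0.78 ± 0.27, with an unadjusted p of 0.0130 and an adjusted p of 0.371 over all genes.

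Klf2 moved the other way. It stood at 175 and 201 CPM in TB spleen Treg against 294 and 341 in normal spleen Treg, and at 351 and 410 CPM in TB spleen Tconv against 542 and 529 in normal spleen Tconv. Klf2 fell by 0.75 ± 0.10 on the log2 scale in Treg (adjusted p = 5.63e-04) and by 0.49 ± 0.10 in Tconv (adjusted p = 0.00559). The Tconv call of Klf2 was lost without TB spleen Tconv library 1 (-0.39, adjusted p = 0.0647) and without library 1 of both TB spleen groups (-0.39, adjusted p = 0.0711). Klf6 fell as well, by 0.30 ± 0.08 in Treg (adjusted p = 0.0229) and by 0.52 ± 0.08 in Tconv (adjusted p = 0.00110). The Treg call of Klf6 was lost without any 1 of the 4 libraries compared, with changes of -0.34 to -0.27 and adjusted p of 0.0660 to 0.171, whereas the Tconv call held under every alternative run.

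Klf10 rose by 0.34 ± 0.09 in Treg (adjusted p = 0.0288) and by 0.47 ± 0.10 in Tconv (adjusted p = 0.00871). The Treg call of Klf10 was lost without TB spleen Treg library 1 (0.31, adjusted p = 0.150) or 2 (0.37, adjusted p = 0.101) and without normal spleen Treg library 2 (0.22, adjusted p = 0.280). The Tconv call of Klf10 was lost without TB spleen Tconv library 1 (0.37, adjusted p = 0.0815) and without normal spleen Tconv library 1 (0.38, adjusted p = 0.0881). Klf4 rose by 2.19 ± 0.49 in Tconv (adjusted p = 0.010), from 15 and 19 counts to 101 and 57 counts, and in Treg its change was 1.23 ± 0.40 (adjusted p = 0.0579), from 43 and 33 counts to 130 and 55 counts. Without TB spleen Tconv library 1 the Tconv change of Klf4 was 1.60 (adjusted p = 0.0967), and it was 2.08 (adjusted p = 0.0694) and 2.32 (adjusted p = 0.0686) without normal spleen Tconv library 1 and 2. In Treg the Klf4 change was 0.50 (adjusted p = 0.508) without TB spleen Treg library 1 and 1.69 (adjusted p = 0.0175) without library 2, and it was also called with no filter on low counts (adjusted p = 0.0144), in a fit of the 2 groups alone (adjusted p = 0.0310) and without any 1 library of TB spleen Tconv or tumour Tconv (adjusted p = 0.0303 to 0.0389).

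Klf13 fell by 0.21 ± 0.07 on the log2 scale in Tconv (adjusted p = 0.0444), from 650 and 682 to 553 and 597 CPM, and changed by -0.15 ± 0.07 in Treg (adjusted p = 0.162). The Tconv call of Klf13 was lost with library-size scaling (-0.14, adjusted p = 0.180) and without any 1 of the 8 spleen libraries (adjusted p = 0.0503 to 0.286), so it is not firm. Klf3 changed by -0.32 ± 0.15 in Treg (adjusted p = 0.164) and by -0.33 ± 0.15 in Tconv (adjusted p = 0.148). Both Klf3 changes were called without either tumour Treg library (adjusted p = 0.00526 and 0.00521 in Treg, 0.00429 and 0.00427 in Tconv) and in fits of the 2 groups alone (adjusted p = 0.00349 and 0.00256). Klf7 changed by -0.30 ± 0.16 in Treg (adjusted p = 0.242) and by -0.22 ± 0.16 in Tconv (adjusted p = 0.389).

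In edgeR's test of whether these changes differed between Treg and Tconv 0 of 8 members were called, where 0.851% of all tested genes were called (0.629% of all tested genes with the lower change in Treg). At an unadjusted p under 0.05 the count was 1, Klf9. DESeq2 and limma-voom also called 0.

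**Figure D5:**
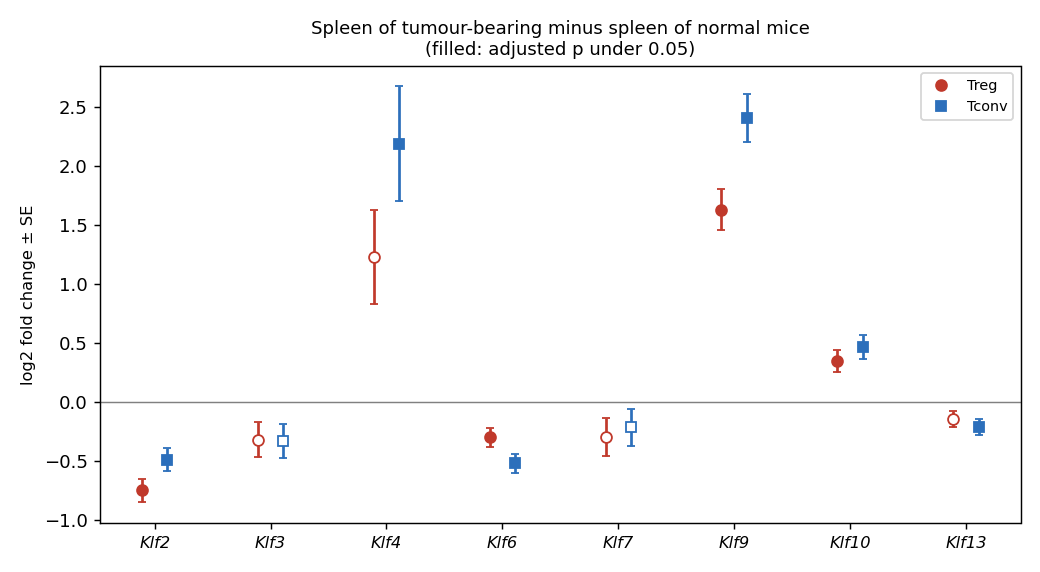
Change of each member between the spleen of TB and of normal mice, as log2 fold change ± SE (vertical axis), for Treg (red circles) and Tconv (blue squares), with filled symbols for an adjusted p under 0.05. Klf9 is the highest called member in both cell types, at 1.63 and 2.41, and Klf2 and Klf6 lie below 0 in both.

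Because Klf9 is a textbook glucocorticoid target, 7 genes of the glucocorticoid response were read beside it. Between TB and normal spleen, 6.80% of all tested genes rose in Treg and 9.74% in Tconv. In TB against normal spleen 3 rose and 0 fell in Treg, and 3 rose and 0 fell in Tconv, and the counts were the same with both other scalings and without library 1 of both TB spleen groups. Fkbp5, a cochaperone of the receptor, rose by 1.16 in Treg (adjusted p = 2.22e-04) and by 1.79 in Tconv (adjusted p = 1.14e-05). The clock gene Per1 rose by 1.07 (adjusted p = 6.69e-05) and by 1.06 (adjusted p = 8.87e-05). The third gene was Nr3c1, the receptor itself, in Treg (0.62, adjusted p = 4.76e-04) and Zbtb16, which innate-like T cells also express, in Tconv (1.30, adjusted p = 0.0204). Zbtb16 stood at 10.6 and 19.5 CPM in TB spleen Tconv against 5.91 and 6.34 in normal spleen Tconv, and its call was lost without TB spleen Tconv library 2 or either normal spleen Tconv library (adjusted p up to 0.252). NK cell markers summed to 64.3 and 95.0 CPM against 47.1 and 40.4 CPM in the same libraries, with 1 of 2 tested called higher, and their part in the Zbtb16 value was not tested. Tsc22d3, the gene of the leucine zipper GILZ, changed by 0.49 (adjusted p = 0.180) and by 0.46 (adjusted p = 0.199), and Sgk1 by 0.30 (adjusted p = 0.301) and by -0.31 (adjusted p = 0.202). Tumour Tconv, where Klf9 was higher than in TB spleen Tconv, had lower Fkbp5 (277 and 197 CPM against 359 and 350). Tumour Treg had higher Fkbp5 than TB spleen Treg (515 and 436 CPM against 330 and 349). In tumour against TB spleen 5 of the 7 rose in Treg (3 without library 1 of both TB spleen groups), Sgk1 by 3.06 and Per1 by 1.39 among them, while in Tconv 2 rose and 3 fell, with Per1 at 2.19 and Ddit4 at -2.88.

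Of the recirculation list 5 of 9 genes fell in Treg and 6 of 9 in Tconv in the spleen of TB mice, and 0 rose in either. Among all tested genes 8.50% fell in Treg and 7.49% in Tconv. In Treg 4 were lower with either other scaling, and without library 1 of both TB spleen groups 3 were lower in Treg and 2 in Tconv. S1pr1 changed by -0.68 in Treg (adjusted p = 0.00398) and by -0.52 in Tconv (adjusted p = 0.0141), and Ccr7 by -0.25 (adjusted p = 0.0477) and by -0.49 (adjusted p = 0.00134). Foxo1, the factor that drives Klf2 and Ccr7 in T cells, changed by -0.36 (adjusted p = 0.00453) and by -0.53 (adjusted p = 3.83e-04). Several of these calls rest on single libraries: S1pr1 in Tconv was lost without any 1 of the 4 libraries compared (adjusted p up to 0.0880), S1pr1 in Treg without normal spleen Treg library 2 (0.0556) or without library 1 of both TB spleen groups (0.0594), Foxo1 in Treg without TB spleen Treg library 2 (0.0615) and Ccr7 in Treg without any 1 of 5 spleen libraries (up to 0.345). Of the 9 quiescence genes, 1 fell in each cell type, Foxp1 in Treg (-0.29, adjusted p = 0.0495, lost without any 1 of the 8 spleen libraries) and Btg2 in Tconv (-0.46, adjusted p = 5.12e-04). Of the 19 immediate early genes, 1 rose and 1 fell in Treg, and 5 rose in Tconv (1 without library 1 of both TB spleen groups). Dusp1, a phosphatase gene induced by both stress and glucocorticoids, rose in both, by 1.89 (adjusted p = 0.00587) and by 2.40 (adjusted p = 0.00228). Dusp1 stood at 303 and 162 CPM in TB spleen Treg and at 131 and 49.6 CPM in TB spleen Tconv, against 51.4 and 74.2 CPM and 17.5 and 16.5 CPM in the matching normal spleen groups. Without library 1 of both TB spleen groups its changes were 1.37 (adjusted p = 0.00539) and 1.54 (adjusted p = 0.00407). Its Treg call was lost without TB spleen Treg library 1 alone and without normal spleen Treg library 1 (adjusted p up to 0.0601).

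Of the other 18 genes of the KLF and SP family 10 passed the filter on low counts. In the tumour 3 rose and 5 fell in Treg (3 and 3 with DESeq2 size factors), and 3 rose and 3 fell in Tconv. Over all tested genes 61.4% were called in Treg and 49.1% in Tconv. Klf5, an activator of epithelial cells, had 52 and 112 counts in tumour Treg and 27 and 163 counts in tumour Tconv, and 0 in all 4 TB spleen libraries. That is at least 57.3-fold higher in Treg and at least 61.6-fold higher in Tconv when the group at 0 is set to a floor of 3 counts in all, which covers counting error only. Taken singly, tumour libraries 1 and 2 give bounds of 36.2-fold and 78.4-fold in Treg and of 21.1-fold and 102-fold in Tconv. The summed epithelium, macrophage and fibroblast markers were all higher in the tumour libraries than in spleen. From library 1 to library 2 the epithelium sum went from 148 to 102 CPM in tumour Treg and from 80.2 to 87.0 CPM in tumour Tconv. In the same order the macrophage sum went from 237 to 345 and from 174 to 432 CPM. The fibroblast sum went from 423 to 401 and from 217 to 529 CPM. The part of these cells in the Klf5 values was not tested. Klf11, the closest relative of Klf10, rose in the tumour by 0.66 in Treg (adjusted p = 8.07e-04) and by 1.38 in Tconv (adjusted p = 4.43e-06), and in TB against normal spleen by 1.09 (adjusted p = 4.42e-04) and by 1.40 (adjusted p = 1.02e-04). Its levels in normal spleen were 11.6 and 12.2 CPM in Treg and 7.54 and 9.35 CPM in Tconv, against 27.4 and 23.3 and 25.5 and 19.4 CPM in TB spleen.

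Klf8 and Klf12, relatives of Klf3 that also recruit CtBP, were higher in Treg at all 3 sites. Klf8 differed by 2.57 in the tumour (adjusted p = 1.60e-06), 1.42 in TB spleen (adjusted p = 4.56e-04) and 1.12 in normal spleen (adjusted p = 0.00463). Klf12 differed by 2.65 (adjusted p = 8.71e-06), 3.48 (adjusted p = 3.91e-06) and 3.02 (adjusted p = 2.93e-05), at 2.40 to 7.69 CPM in Treg and 0.306 to 1.18 CPM in Tconv. In the tumour Klf8 rose in Treg by 1.21 (adjusted p = 3.92e-04), while Klf3 fell there, and the change of Klf8 differed from that in Tconv by 1.15 (adjusted p = 0.0270, lost without any 1 of 5 libraries, up to 0.104). Sp6 was higher in Treg at all 3 sites but 86.7% of its exonic bases overlap an opposite-strand gene, so its values are uncertain. Sp1, the founding GC-box factor, fell in the tumour by 0.49 on the log2 scale in Treg and by 0.40 in Tconv, Sp3 by 0.22 and 0.39, and Sp4 and Sp2 fell in Treg by 0.49 and 0.26. The Treg calls of Sp3 and Sp2 were lost without tumour Treg library 1 or TB spleen Treg library 1 (adjusted p up to 0.115 and 0.255). Klf16 was called in none of the 9 comparisons.

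The order of the group means differed from member to member. Klf2 ran from tumour Tconv through normal and TB spleen Tconv to normal spleen, tumour and TB spleen Treg, and TB spleen Tconv and normal spleen Treg were closer than the sum of their SDs. Klf3 ran from normal spleen Tconv through normal spleen Treg and tumour Tconv, which were within their spread, to TB spleen Tconv, TB spleen Treg and tumour Treg. For Klf4 and Klf6 both tumour groups led, within their spread, and TB spleen Treg and Tconv were within their spread of each other. In Klf4 TB spleen Treg was also within its spread of normal spleen Treg. Klf7 was led by tumour and normal spleen Tconv, within their spread, and closed with TB spleen and tumour Treg, within theirs. Klf9 ran from tumour Treg through tumour Tconv to TB spleen Treg, each within the spread of the next, then TB spleen Tconv, normal spleen Treg and normal spleen Tconv. Klf10 was led by tumour Treg, and only normal spleen Treg and TB spleen Tconv were within their spread. In Klf13 the 3 Tconv groups came first, and no neighbours were within their spread.

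Across the 12 libraries the members formed no single pattern. The highest Pearson correlations of log2 CPM were 0.92 between Klf2 and Klf13, 0.88 between Klf4 and Klf6 and 0.82 both between Klf9 and Klf10 and between Klf4 and Klf10, and the lowest was -0.82 between Klf3 and Klf10. These are descriptions over 12 libraries in 6 groups, and the pairs share libraries and scaling. A search was made of 8363 genes whose log2 CPM averaged 3 or more, passing over gene models, pseudogenes and receptor segments. Among them the gene most like Klf2 was S1pr1 (r = 0.97), followed by Cd55 (r = 0.96). The pairs closest to the others were Evl and Zmynd8 for Klf3 (both r = 0.99), Wsb1 (r = 0.99) and Junb (r = 0.98) for Klf4, Golph3 and Gtf2b for Klf6 (both r = 0.99) and Rpl7a (r = 0.98) and Eif4ebp2 (r = 0.97) for Klf7. For Klf9 they were Zswim8 (r = 0.97) and Sfi1 (r = 0.95), for Klf10 Nudt4 and Tcirg1 (both r = 0.99), and for Klf13 Rassf3 and Cnn3 (both r = 0.97). Evl averaged 40.8 CPM in tumour Treg and 173 to 319 CPM in the other groups, the pattern of Klf3, and Junb averaged 2833 and 4257 CPM in the 2 tumour groups and 254 to 691 CPM in spleen, the pattern of Klf4. Opposite-strand genes overlap 13.8% of the exonic bases of Golph3, 9.46% of those of Evl, 7.52% of those of Junb and 17.7% of those of Cnn3.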

How the data were processed

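The authors' deposited table holds unscaled read counts for each gene in each of the 12 libraries. Per the labels' protocols, CD4+ T cells were purified by negative selection, then separated by GFP, and libraries came from a stranded mRNA kit. Per the submitters' processing notes, STAR, featureCounts and mm10 were used; versions, strand setting and annotation are not given in the sources used here. The counts were analysed with edgeR 4.0.16 (R 4.3.3). Of 24062 genes, 13509 passed filterByExpr. Libraries were scaled by TMM (factors 0.942 to 1.07), and 1 quasi-likelihood model held the 6 group means, with 6 residual degrees of freedom and a common biological coefficient of variation of 0.0863. It gave 7 comparisons and 2 tests of a difference between cell types. SE was computed from the log2 change and its F value. Replicates differed by 3.54 to 17.0 times counting noise (chi-square per gene), so none repeats another within counting noise. All 8 genes are named throughout. From each other list, called genes of smallest adjusted p were named, plus S1pr1 and Ccr7; 1 gene of the recirculation list is counted but not reported here; Egr2, Ctbp1, Tsc22d3, Sgk1, Ddit4, Dusp1, Myc, Pecam1, Cdh5 and the change of Btg2 in Treg were named after their values were seen. Leaving out libraries was extended to the named list genes after the data were seen. Likeness used log2 CPM with a prior count of 2 and left out gene models, pseudogenes, microRNAs and antigen receptor segments by their names. The genes and lists were chosen with earlier results of these data known. The procedure was tested on simulated counts in which few genes changed, and only in tumour Treg. That test does not cover the many changed genes of these data. Alternatives used other scalings and filters, DESeq2 1.42.0, limma 3.58.1, replicate blocks and left-out libraries. Figures used matplotlib 3.10.9.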

Additional observations from a re-analysis of the deposited data

Results flagged for a closer look

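For Klf2 and Klf3 the change from TB spleen to tumour differed between Treg and Tconv in a test of that difference. For Klf2 the Treg change minus the Tconv change was -0.83 on the log2 scale (adjusted p = 0.00130, edgeR), with both changes upward. For Klf3 it was -1.98 (adjusted p = 6.43e-05, edgeR), with a fall in Treg and a change of 0.12 in Tconv. Both Treg libraries of the tumour were below all other libraries for Klf3, at 45.3 and 73.4 CPM.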

How the results depend on the processing

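Over the 8 genes and 9 comparisons, 743 of 792 values under other settings kept their direction and their side of the threshold, 24 lost the call, 15 gained it and 10 changed sign. With 1 library left out, 799 of 864 did so, 29 lost the call, 20 gained it and 16 changed sign. The counts of called genes were steadier in the tumour than in spleen. With 1 library left out they ran from 5 to 7 (tumour Treg against TB spleen Treg), 6 to 6 (the same in Tconv), 5 to 5 (Treg against Tconv in the tumour), 3 to 6 (in TB spleen), 4 to 7 (in normal spleen), 2 to 5 (TB against normal spleen Treg), 2 to 7 (the same in Tconv), 2 to 3 (the tumour change, Treg minus Tconv) and 0 to 0 (the spleen change, Treg minus Tconv). A fit of the 2 groups alone called 8 genes between Treg and Tconv in normal spleen, against 5. Leaving out library 1 of both TB spleen groups, chosen after seeing the data because both had high immediate early genes, gave 3 in TB spleen, 2 in TB against normal spleen Treg and 3 in Tconv. In that setting the tumour change of Klf13, Treg minus Tconv, was 0.0257 and the spleen change of Klf3 was -0.0655.
The labels do not say that equal replicate numbers mark the same mouse, and for normal mice the titles and the descriptions number the samples differently, so 2 fits with the replicate number as a block were made. In the tumour against TB spleen both blocks called 7 genes in Treg, against 6, and 3 in the test of the difference, against 2. The gene added was Klf9, with edgeR adjusted p of 0.00987 (title) and 0.0206 (description) in Treg and of 0.0132 and 0.0295 for the difference. With the block by title number TB against normal spleen gave 2 called genes in Treg and the spleen change, Treg minus Tconv, 1 (Klf9, -0.77, adjusted p = 0.0323 by edgeR). With the block by description number it gave 2 in Treg and 2 in Tconv, and the spleen changes, Treg minus Tconv, were -0.0406 for Klf3 and 0.0954 for Klf10. By title number, correlations of same-numbered libraries' deviations ran from -0.129 to 0.148 over all pairs of groups. The lowest was tumour Tconv with normal spleen Tconv, which are of different mice. Between groups of TB mice they ran from -0.039 to 0.148.
The sign changes were otherwise of values near 0 that no setting called. Klf4 in Treg against Tconv of TB spleen (-0.0004) was 0.0016 with DESeq2 size factors, 0.0492 with library-size scaling, 0.0195 with no filter, 0.0074 with a filter of CPM above 1 in 2 libraries and 0.0013 in a fit of the 2 groups alone, and Klf6 was 0.0055 with library-size scaling. With 1 library left out, Klf4 there ran from -0.7214 to 0.5822, and Klf6 in the tumour from -0.0736 to 0.1405. The tumour change, Treg minus Tconv, ran from -0.7583 to 0.5455 for Klf4, from -0.0264 to 0.1927 for Klf6 and from -0.0649 to 0.0457 for Klf13. The spleen change, Treg minus Tconv, ran from -0.0548 to 0.0737 for Klf3, from -0.2763 to 0.0891 for Klf7 and from -0.2451 to 0.0137 for Klf10. The cause of these moves was not tested. Depth limits Klf4 most, at 15 to 43 counts in the normal spleen libraries.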
